A study of Mus musculus with 5 samples.

Results

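The set described here is the pair of male (XY) Smarca4 ChIP-seq libraries of this series, read in 23408 autosomal regions that neither of them chose. Regions were peaks called in the 2 female (XX) libraries, merged where they overlapped by 1 bp and kept on chromosomes 1 to 19 where the Input library held under 20 reads. They are 23408 of 71929 merged regions over the 4 peak lists, and of 23865 merged regions in the XX lists. Of the 23408, 20720 came from the XX Nons list alone, 2522 from the XX Smarcc1.6 list alone and 166 from both. The cells were Xmas mESCs, mouse embryonic stem cells of a C57/Bl6 strain whose X-linked Hprt gene carries a fluorescent reporter. They received by retrovirus either the Smarcc1.6 hairpin, an shRNA against Smarcc1, or Nons, a non-silencing control shRNA, and were fixed on day 4 of a differentiation that began with gradual withdrawal of 2i medium. There was 1 library for each sex and hairpin and 1 Input library, so that every ratio below compares 2 libraries and has no replicate check and no test. The antibody field of the labels names the hairpin's target for the 4 ChIP libraries, whereas the design text and the methods give Smarca4 as the protein that was precipitated.

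Smarca4, also known as Brg1, is the ATPase of BAF (SWI/SNF) chromatin remodelling complexes, which slide or evict nucleosomes at promoters and enhancers. Smarcc1, also known as BAF155, is a core scaffold subunit around which these complexes assemble, and embryonic stem cells use a form of the complex rich in it. The comparison asks how Smarca4 signal in XY cells stood with and without the Smarcc1 hairpin at places picked without regard to XY reads.

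The hairpin sequences are shown because they define the comparison. Each is a 22-base pair of arms, printed 5′ to 3′ with bases 2 to 8 of the guide strand, its seed, in capitals.
Smarcc1.6 guide: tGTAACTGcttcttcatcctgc
Smarcc1.6 sense strand: acaggatgaagaagcagttaca
Nons guide: cTTACTCTcgcccaagcgagag
The complement of the Smarcc1.6 guide had 1 exact match on chromosomes 1 to 19 and X of GRCm38, at chr9:110177472-110177493 on the plus strand. The match lies in coding sequence of exon 13 of Smarcc1 in GENCODE vM21, and the sense strand shares 21 of 22 bases with it, with the substitution A1G counted from the 5′ end of the sense strand. The complement of the Nons guide had 0 exact matches. The files hold no expression values, so the degree of knockdown and the identity of the cells at day 4 were not checked here.

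The deposited ChIP values are whole multiples of 1 step per library, 4.59 for XY Nons and 7.03 for XY Smarcc1.6. A step is 1 read brought to the depth of the Input library, so a scaled signal of 1 equals 1 read at that depth. The XY Nons library had 21.8% of the Input depth and the XY Smarcc1.6 library 14.2%, so the knockdown side is the shallower. A reporting form of the study gives XY Nons many more raw reads than XY Smarcc1.6, with a much smaller share of them uniquely mapped. The part of this difference in the ratios was not tested. Each library was scaled by its own depth, so a change shared by all of its reads would not show in a ratio. A region held a median of 4 reads in XY Nons (0 to 109) and 3 reads in XY Smarcc1.6 (0 to 63). No read was seen in 1104 regions of XY Nons and in 2826 regions of XY Smarcc1.6. Intervals are 95% exact intervals for the ratio of 2 read counts and cover counting error only. Where 1 ratio is set over another, as for promoters over all other regions, the interval is a normal approximation from the read counts on a log scale. Whether a lower signal comes from fewer cells with bound Smarca4 or from less Smarca4 per cell cannot be told apart.

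Summed over all 23408 regions, scaled Smarca4 signal was nearly equal in the XY libraries. XY Nons had 106783 reads and XY Smarcc1.6 had 68612, which after scaling gave a mean of 20.9 and 20.6 per region. The ratio of Smarcc1.6 to Nons was 0.985 (0.975 to 0.994). Both libraries were enriched over Input in the same regions, 5.70-fold in XY Nons and 5.61-fold in XY Smarcc1.6. Peaks had been called against this Input library and regions were kept where it was low, so these choices can raise such folds, here and below. The XY Nons fold ran from 17.6 at 1 Input read to 2.69 at 10 to 19 Input reads. Peaks called in the XY libraries themselves were less even: 13.7% of the regions overlapped an XY Nons peak, 5.43% an XY Smarcc1.6 peak and 1.21% both. The deeper library thus had a called peak in 3207 of the regions and the shallower one in 1270, at nearly the same mean scaled signal.

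Region by region, the differences ran both ways. Of 6422 regions with 10 or more XY reads, 1092 (17.0%) were lower by 2-fold or more in XY Smarcc1.6 and 933 (14.5%) were higher by 2-fold or more. The median log2 ratio, with 0.5 reads added to each library, was 0.06, and the middle 90% of regions lay between −2.02 and 1.53. A single region of 10 reads cannot carry a 2-fold difference: with 301 regions of 20 or more reads the middle 90% narrowed to −1.57 to 1.23. Scatter was wider than counting alone gives. The mean squared deviation of the Smarcc1.6 reads from their expected share, in units where counting error alone gives 1, was 1.39 at 10 or more reads and 1.61 at 20 or more, so the intervals printed here are too narrow for what separates these libraries.

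**Figure D1:**
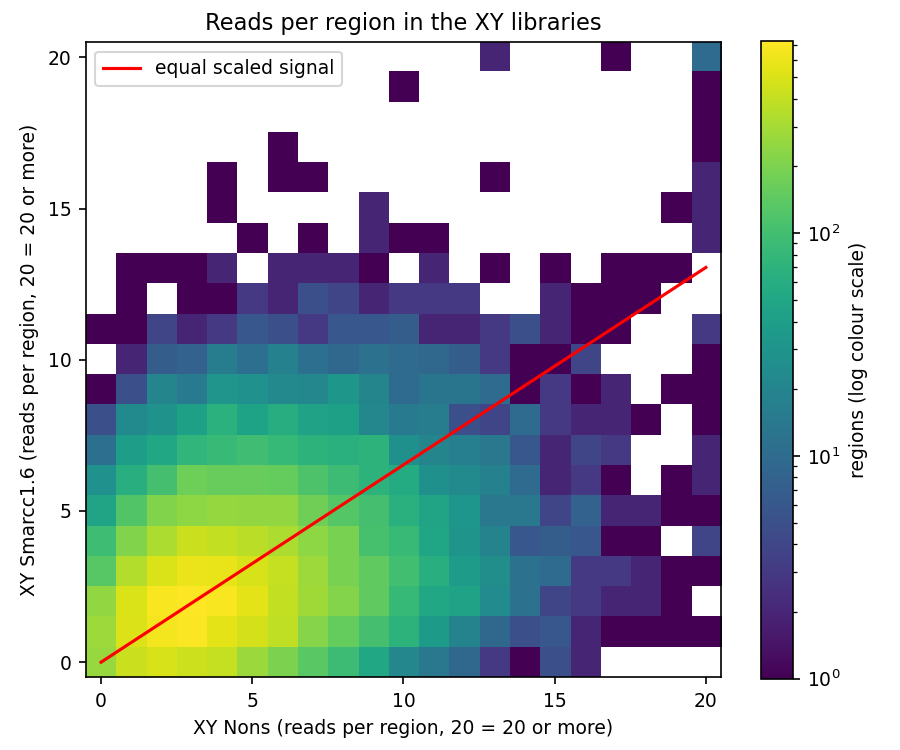
Number of regions (colour, log scale) by reads in XY Nons (horizontal axis) and in XY Smarcc1.6 (vertical axis), with values of 20 or more placed at 20 and a red line at equal scaled signal. Most regions lie near the median of 4 and 3 reads, and regions with many reads in both libraries are few.

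No chromosome stood far from the rest. The ratio was lowest on chromosome 8 at 0.931 (0.897 to 0.965), with 7701 Nons and 4677 Smarcc1.6 reads in 1619 regions, and highest on chromosome 16 at 1.03 (0.969 to 1.09), with 2720 and 1826 reads in 634 regions. The interval held the overall ratio on 18 of 19 chromosomes, the exception being chromosome 8. It lay wholly under 1 on 3 chromosomes, namely 8, 11 at 0.959 (0.929 to 0.991) and 7 at 0.965 (0.931 to 1.00, under 1 before rounding), and wholly over 1 on 0. The chromosomes richest in regions, 4 with 2084 and 2 with 2020, had ratios of 1.01 and 1.01. Across the 19 chromosomes the ratio did not follow the median GC content of the regions (Pearson's r = 0.02, Spearman's rho = 0.02, both as a description, since all chromosomes share the same libraries). Regions within 5 Mb of a chromosome end had a ratio of 0.962 (0.929 to 0.997), against 0.986 (0.977 to 0.996) further in.

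**Figure D2:**
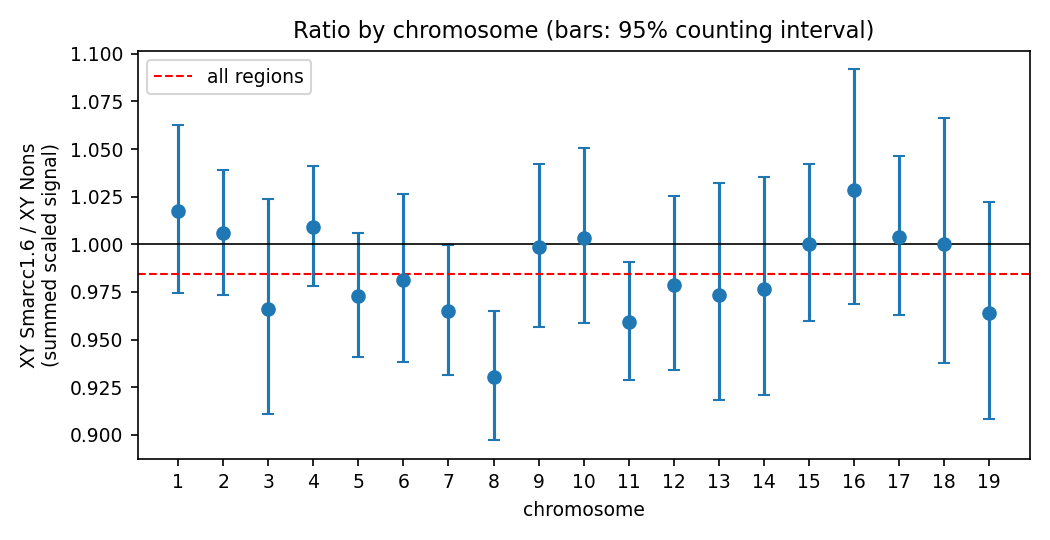
Ratio of summed scaled signal, XY Smarcc1.6 over XY Nons, for each autosome (points) with its 95% counting interval (bars), a solid line at 1 and a dashed line at the ratio of all regions, 0.985. All 19 points lie between 0.931 and 1.03, and 18 intervals hold the dashed line.

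At a finer scale, 265 windows of 1 Mb held 200 or more XY reads. Their ratios ran from 0.686 to 1.32 with a median of 0.961, the interval lay wholly under 1 in 11 windows and wholly over 1 in 5, and the scatter was again above counting error (1.30 in the same units). The lowest window was chr11:97000001-98000000, where 42 regions held 259 Nons and 116 Smarcc1.6 reads, a ratio of 0.686 (0.546 to 0.857). It contains the regions of Epop and Pcgf2, which are described below with the Polycomb genes. The highest was chr5:143000001-144000000 at 1.32 (1.01 to 1.71), with 128 and 110 reads in 26 regions. These windows were ranked by the ratio itself, so they show the range and nothing more.

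The ratio was a few percent lower in coding exons and promoters than in introns and between genes. Each region was given 1 part from GENCODE vM21, with promoters taken as 1000 bp on either side of a transcription start site. Coding exons, with 4452 regions, had a ratio of 0.940 (0.921 to 0.960), and promoters, with 1963 regions, 0.950 (0.920 to 0.981). Other exons had 0.964 (0.917 to 1.01, 842 regions). Introns had 1.00 (0.987 to 1.02, 9787 regions), intergenic regions within 50 kb of a gene 1.015 (0.994 to 1.04, 5294 regions) and distal intergenic regions 1.01 (0.964 to 1.07, 1070 regions). The interval of coding exons does not overlap that of introns. Promoters stood to all other regions as 0.962 (0.930 to 0.994), but as 1.08 (1.05 to 1.11) with no Input maximum. This interval held 1 without regions that overlap an XY peak, at 0.979 (0.940 to 1.02), with a wider promoter window, at 0.977 (0.952 to 1.00), and in the XX Smarcc1.6 list alone, at 0.952 (0.858 to 1.06). Among regions with 10 or more reads, 18.3% of coding exon regions and 17.8% of promoters were lower by 2-fold or more, beside 17.0% over all regions. In the same parts 218 of 1814 and 74 of 659 (11.2%) were higher, beside 14.5% over all regions. Intergenic regions within 50 kb went the other way, with 15.4% lower and 16.9% higher. Promoters also carried more called peaks than regions at large, 17.4% overlapping an XY Nons peak and 6.32% an XY Smarcc1.6 peak, and coding exons carried the most, 20.1% and 7.19%.

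From 50 to 60% GC the ratio fell in each of the 4 parts read by GC content, namely promoters, coding exons, introns and intergenic regions within 50 kb. Over all regions the ratio was 1.03 (1.01 to 1.04) at 50 to 55% GC, 0.944 (0.930 to 0.959) at 55 to 60% and 0.892 (0.857 to 0.928) at 60 to 65%. Coding exons went from 1.01 (0.977 to 1.05) to 0.911 (0.886 to 0.937) and 0.853 (0.802 to 0.907) over the same steps. Introns went from 1.03 (1.00 to 1.05) to 0.975 (0.949 to 1.00) and 0.918 (0.833 to 1.01), and intergenic regions within 50 kb from 1.05 (1.02 to 1.08) to 0.967 (0.933 to 1.00) and 0.831 (0.735 to 0.938). Promoters were at 0.982 (0.924 to 1.04), 0.912 (0.870 to 0.955) and 0.963 (0.888 to 1.04), so that the fall did not go on in the last step. Below these steps, at 45 to 50% GC, promoters had 1.15 (0.986 to 1.35), coding exons 1.01 (0.912 to 1.12), introns 1.00 (0.960 to 1.05) and intergenic regions within 50 kb 1.04 (0.980 to 1.09), so introns, coding exons and intergenic regions were no higher there than at 50 to 55%. At 50 to 55% GC the intervals of coding exons and introns overlapped, and at 55 to 60% they did not. Promoters of high CpG content, here GC of 50% or more with an observed over expected CpG of 0.6 or more, had a ratio of 0.965 (0.884 to 1.05, 263 regions) and the other 1700 promoters 0.948 (0.916 to 0.981). Enrichment over Input in XY Nons also varied with GC, 5.62-fold at 50 to 55%, 6.95-fold at 55 to 60% and 5.93-fold at 60 to 65%. The part of base composition in the result was not tested.

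**Figure D3:**
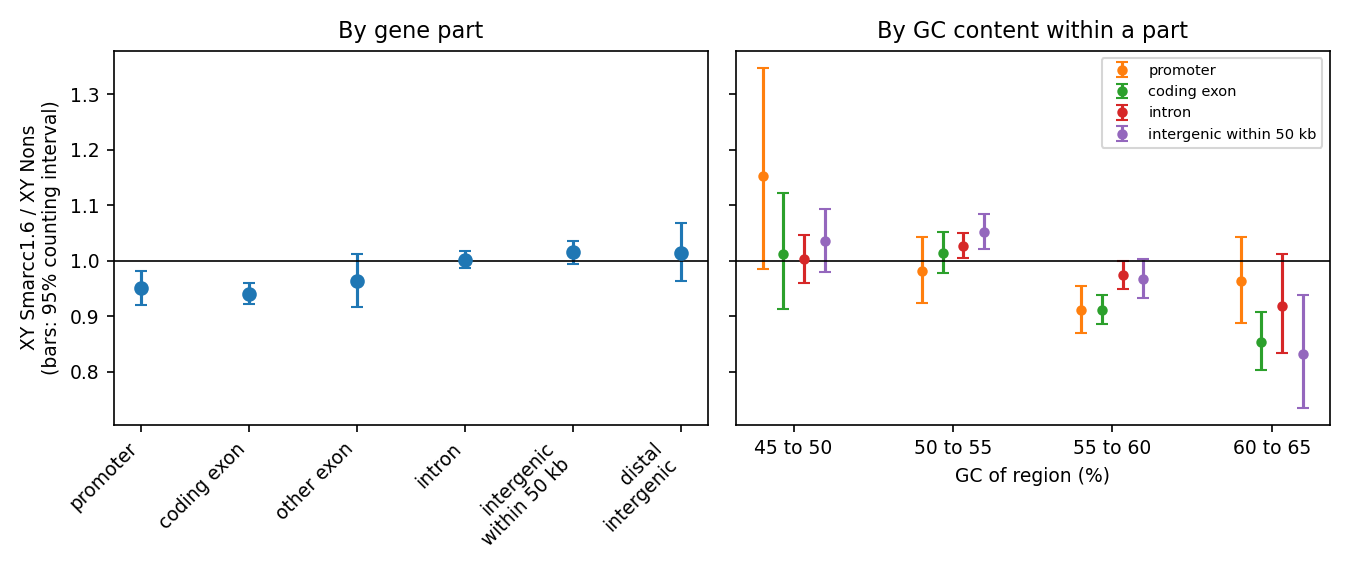
Ratio of summed scaled signal, XY Smarcc1.6 over XY Nons, by gene part (left) and by GC content of the region within 4 of the parts (right, colours), with 95% counting intervals as bars and a line at 1. Coding exons and promoters lie at 0.940 and 0.950 on the left, and on the right coding exons fall from 1.01 to 0.853 between 50 and 65% GC.

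Reads in Input gave a like, shallow slope. Regions with 0 Input reads had a ratio of 1.01 (0.974 to 1.06, 1608 regions), those with 5 or 6 reads 0.961 (0.940 to 0.983, 4026 regions) and those with 10 to 19 reads 0.931 (0.891 to 0.972, 807 regions). Just inside the limit that chose the regions, 71 regions with 15 to 19 Input reads had 665 Nons and 353 Smarcc1.6 reads, a ratio of 0.813. Just outside it, 36 regions with 20 to 49 Input reads had 962 and 687 reads, a ratio of 1.09. Region width gave no slope of this kind, with 0.985 (0.969 to 1.00) in the 10542 regions of 300 bp and 0.976 (0.954 to 0.998) in the 3157 regions of 600 bp.

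The ratio changed little across groups by reads in XX Nons, a library that plays no part in the XY ratio. Peaks of XX Nons chose most of the regions, so this level is not free of the choice. The middle groups span few reads, 7 and 8 to 9, so the groups cannot show whether strength of binding matters. In 4 groups cut at the quartiles of XX Nons signal, from the weakest to the strongest, the ratios were 0.992 (0.974 to 1.01), 0.993 (0.971 to 1.02), 0.982 (0.965 to 0.999) and 0.972 (0.953 to 0.992). The strongest group, of 10 to 72 XX Nons reads, stood to the weakest, of 0 to 6, as 0.980 (0.954 to 1.01). Regions from the XX Smarcc1.6 list alone had 1.01 (0.980 to 1.05), those from the XX Nons list alone 0.981 (0.971 to 0.991) and the 166 regions of both lists 1.05 (0.966 to 1.15). Sorting instead by XY Nons reads gave a steep fall, from 3.35 at 1 read and 1.08 at 4 reads to 0.720 at 7 or 8 reads and 0.564 at 11 to 15 reads, with 0.668 (0.620 to 0.718) in the 116 regions of 16 or more reads. That library is the denominator of the ratio, so sorting by it lowers the ratio of regions with many reads, and the slope is not read as one of strong and weak binding.

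**Figure D4:**
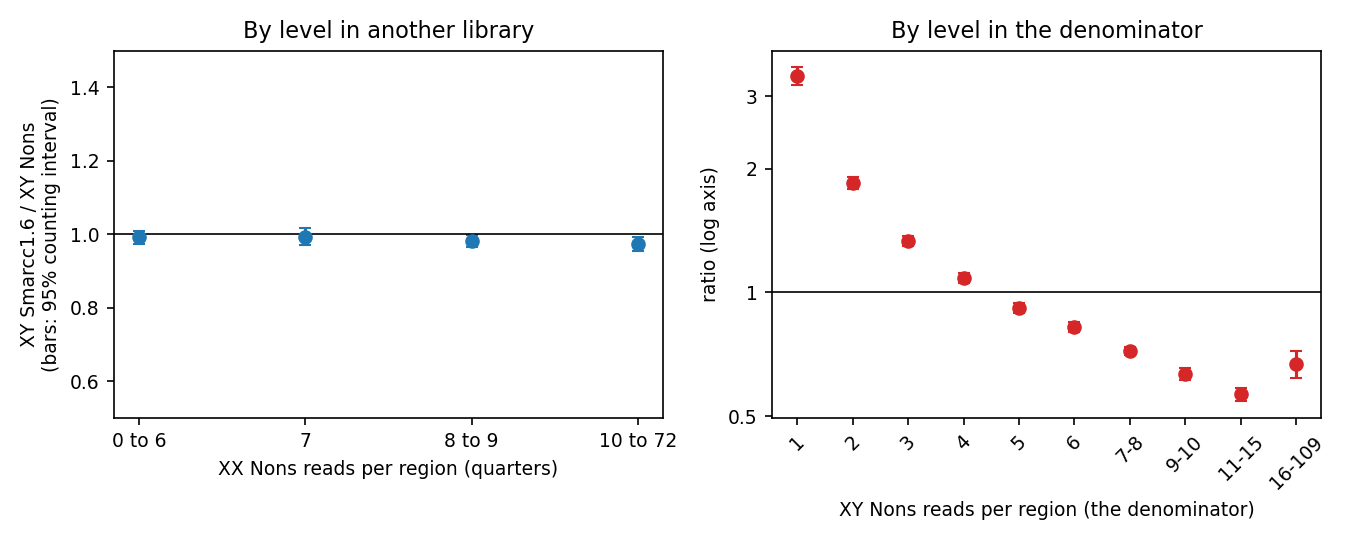
Ratio of XY Smarcc1.6 over XY Nons in 4 groups of reads in XX Nons (left) and by reads in XY Nons, which is also the denominator (right, log axis), with 95% counting intervals as bars. The left points stay between 0.972 and 0.993, and the right points fall from 3.35 at 1 read to 0.564 at 11 to 15 reads, with 0.668 at 16 or more.

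The XX libraries gave the mirror view. In 52069 autosomal regions of the XY lists with Input under 20, which XX reads did not choose, XX Smarcc1.6 stood to XX Nons as 0.637 (0.631 to 0.644), on 47258 and 144012 reads. Both XX libraries were shallower than the XY ones, at 5.99% of the Input depth in XX Smarcc1.6 and 11.6% in XX Nons. A region held a median of 1 and 2 reads, and 24950 regions had no XX Smarcc1.6 read and 6452 no XX Nons read. The XX ratio was below the XY ratio on each of the 19 chromosomes: it ran from 0.600 on chromosome 9 to 0.671 on chromosome 6, below the lowest XY value of 0.931. By GC it was 0.652 (0.641 to 0.663) at 50 to 55%, 0.609 (0.599 to 0.619) at 55 to 60% and 0.642 (0.618 to 0.667) at 60 to 65%. Promoters and coding exons were at 0.643 (0.624 to 0.664) and 0.625 (0.611 to 0.639), introns at 0.641 (0.630 to 0.652). With 1 library per sex and hairpin the sex and the library cannot be told apart, and the difference between the sexes was not tested.

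Short motifs were searched on both strands of each region. TGANTCA, the pattern of AP-1 factors, was in 10.4% of regions, and these had a ratio of 1.04 (1.01 to 1.07) against 0.978 (0.968 to 0.988) without it. Within 50 to 55% GC the values were 1.08 (1.03 to 1.13) and 1.02 (1.00 to 1.04), and within 55 to 60% 0.970 (0.923 to 1.02) and 0.942 (0.926 to 0.957). GGGCGGGGC, a GC box of the kind Sp and Klf factors bind, was in 0.995% of regions and went the other way, 0.882 (0.802 to 0.969) with it and 0.986 (0.976 to 0.995) without it. Within 55 to 60% GC the GC box values were 0.878 (0.769 to 1.00) and 0.945 (0.931 to 0.960). Regions with CACGTG, the E-box of Myc and related factors, had a ratio of 0.959 (0.928 to 0.990). Regions with CCGGAAG, a pattern of Ets factors, had 0.940 (0.893 to 0.988). Regions with CCACCC, a pattern of Klf factors, had 0.970 (0.956 to 0.984). Regions with AGATAA, which Gata zinc finger factors bind, had 1.02 (0.990 to 1.05). These 4 motifs were in 8.20%, 3.35%, 42.2% and 11.6% of regions, in that order, and motif content moves with GC and width.

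Windows around the TGANTCA and GC box matches are printed, with the match in capitals, to show that they sit in regions on both sides of equality. The first 3 are in regions named by rule below. The last 3 were chosen after their values were seen, as the gene regions with most XY reads that hold the GC box. All are the plus strand of GRCm38.
Tdrd12, chr7:35528953-35528979: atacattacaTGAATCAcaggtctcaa
Nfix, chr8:84786264-84786290: ctttagattcTGATTCAaggcggcttg
Tmem184a, chr5:139806767-139806793: gctgagcagcTGAGTCAttgacttttg
Arhgdia, chr11:120580388-120580416: ggacacctgtGGGCGGGGCatgagcagga
Exoc3l2, chr7:19479902-19479930: aggtaggctcGCCCCGCCCctgagagggg
Egfl7, chr2:26588754-26588782: ctctgcccagGCCCCGCCCagagcctcag
The Tdrd12 region is among the 10 lowest and the Nfix region among the 10 highest of the 218 regions in or beside protein-coding genes with 20 or more XY reads, and both hold the motif. The AP-1 pattern was in 15.1% of all regions of 600 bp, the width of the Tdrd12 region, and in 11.3% of those of 450 bp, the width of the Nfix region. The Arhgdia region had 11 Nons and 13 Smarcc1.6 reads (scaled 50.4 and 91.3), the Exoc3l2 region 13 and 7 reads (59.6 and 49.2) and the Egfl7 region 14 and 5 reads (64.2 and 35.1).

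Gene classes were then compared by 23 lists, each over the regions in the body or within 1000 bp of a start site of a member. The interval held the overall ratio of 0.985 for 22 of the 23 lists and held 1 for 21. Polycomb and axon guidance genes lay wholly under 1, and 0 lists lay wholly over 1. Reads given beside a gene's name are those of 1 region, unless they are said to be summed. At promoters alone, in 22 lists that had any, the picture was wider, on few reads and read after the values were seen. A promoter region counted here can be that of another gene whose start lies in the body of a list member. The interval lay wholly under 1 for TGF-beta, BMP and activin genes at 0.447 (0.228 to 0.824, 48 and 14 reads in 7 regions), for corepressors and class IIa Hdac genes at 0.414 (0.184 to 0.849, 37 and 10 reads in 4 regions) and for potassium and calcium channels at 0.670 (0.455 to 0.973, 96 and 42 reads in 14 regions). It lay wholly over 1 for neural ectoderm genes at 1.62 (1.00 to 2.60, over 1 before rounding, 37 and 39 reads in 6 regions). Of these reads 10 and 19 came from a single promoter region of Pax7, which is also among the 10 highest regions named below.

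Polycomb genes, whose proteins place and read repressive marks on histones H3 and H2A, had the ratio furthest from the overall value among lists of 20 or more regions. In 27 regions of 13 genes there were 172 Nons and 75 Smarcc1.6 reads, a ratio of 0.668 (0.502 to 0.881). Among 11 of these regions with 10 or more reads 2 were lower by 2-fold or more and 0 were higher, near the background of 17.0% for lower regions, and the median log2 ratio was −0.45 beside 0.06 over all regions. Epop, which encodes a partner of PRC2, had 14 Nons reads (scaled 64.2) and 2 Smarcc1.6 reads (14.1) in an exon outside coding sequence, at chr11:97627651-97628100. Phf19, a PRC2 partner that reads H3K36 methylation, went the other way with 13 and 9 reads in its main region (59.6 and 63.2). Cbx7, a chromodomain subunit of PRC1 in embryonic stem cells, had 32 Nons and 10 Smarcc1.6 reads over 4 regions, a ratio of 0.479 (0.210 to 0.998). Pcgf2, also of PRC1, had 9 and 0 reads in 1 region. Phc2, with the most regions of the list, 8, had 39 and 21 reads and 0.825 (0.461 to 1.44). Cbx7, Pcgf2 and Phc2 were named after their values were seen. Without regions that overlap an XY peak the Polycomb interval no longer lay wholly under 1.

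Genes of the BAF complex itself had 50 regions in 17 of 31 listed genes and a ratio of 0.903 (0.718 to 1.13), with 2 lower and 2 higher among 13 regions of 10 or more reads (15.4% each way, beside 17.0% and 14.5% over all regions). None of these regions was a promoter, and Smarcc1 had no region. Dpf3, a subunit with histone-reading PHD fingers, had 7 Nons and 7 Smarcc1.6 reads (32.1 and 49.2) in its main region, an intron. Bicral, a subunit of the GBAF form, had 9 and 5 reads (41.3 and 35.1). Smarca4 held 2 intronic regions with 8 and 13 reads in all, a ratio of 2.49 (0.957 to 6.93), and Arid1b, a subunit of the BAF form with 9 regions, had 42 and 25 reads and 0.912 (0.533 to 1.53). Both were named after their values were seen. Other chromatin remodellers, the Chd, Iswi and Ino80 families, were at 1.13 (0.899 to 1.41, 44 regions): Chd5 had 10 and 10 reads (45.9 and 70.3) and Chd3 8 and 7 reads (36.7 and 49.2). DNA methylation enzymes were at 0.816 (0.518 to 1.26, 11 regions), where Dnmt1, the maintenance methyltransferase, had 9 and 5 reads (41.3 and 35.1). Histone deacetylases and demethylases were at 1.03 (0.744 to 1.42, 20 regions). In that list a region of Kdm6b, an H3K27 demethylase, had 11 and 11 reads (50.4 and 77.3). It was classed as a promoter of the antisense gene Kdm6bos. Corepressors and class IIa Hdac genes were at 0.870 (0.722 to 1.05, 62 regions).

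Lists of cell identity were small and ran in both directions. Pluripotency genes were at 1.41 (0.857 to 2.31) in 11 regions, with Esrrb, an orphan receptor of the naive network, at 6 and 5 reads (27.5 and 35.1). Formative and early differentiation genes were at 0.741 (0.505 to 1.07) in 17 regions. In that list Lef1, a transcription factor that acts with beta-catenin, had 15 Nons reads (68.8) and 1 Smarcc1.6 read (7.03) over 300 bp at chr3:131184601-131184900, while Lefty2, a secreted inhibitor of Nodal, had 10 and 6 reads (45.9 and 42.2) at its promoter. Neural ectoderm genes were at 1.20 (0.909 to 1.58) in 20 regions, mesoderm genes at 1.44 (0.662 to 3.10) in 3, endoderm genes at 1.53 (0.951 to 2.47) in 10 and Hox genes at 1.17 (0.934 to 1.47) in 17. Pax7 alone held 39 of the 124 Nons and 48 of the 97 Smarcc1.6 reads of the neural ectoderm list, a ratio of 1.89 (1.21 to 2.96). Members of that list ran in both directions, with Lhx2 at 0.730 (0.307 to 1.62). Pax7 and Lhx2 were named after their values were seen, and the list was not read without Pax7. Six3, a forebrain homeobox gene, had 13 and 9 reads (59.6 and 63.2) at its promoter. The mesoderm gene T (brachyury) had 9 and 6 reads (41.3 and 42.2) and Tbx5, of heart and forelimb, 7 and 6 (32.1 and 42.2). Hnf4a, a hepatocyte and visceral endoderm factor, had 7 and 4 reads (32.1 and 28.1). Of the 12 Hox regions with 10 or more reads 0 were lower by 2-fold or more and 1 was higher, beside 17.0% and 14.5% over all regions. The trophoblast list, at 0.962 (0.824 to 1.12), held 91 regions of which 75 lay in the long annotated gene model of Fgfr2, and without that gene its 16 regions were at 1.06 (0.763 to 1.46). Gata3, a trophoblast factor in that list, had 11 and 7 reads (50.4 and 49.2) in its main region and 15 and 14 summed over 2. Imprinted genes were at 0.981 (0.721 to 1.33, 24 regions). Kcnq1, a potassium channel gene of an imprinted domain, had 51 and 31 reads summed over 11 regions, a ratio of 0.931 (0.576 to 1.48), among them an intronic region with 2 Nons reads (9.17) and 11 Smarcc1.6 reads (77.3).

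Over all their regions, signalling and surface genes lay closer to the overall ratio, on more reads. Wnt pathway genes were at 1.07 (0.935 to 1.22, 109 regions), TGF-beta, BMP and activin genes at 0.944 (0.799 to 1.11, 73 regions) and Notch genes at 0.857 (0.713 to 1.03, 61 regions). Within them the inhibitory Smad6 had 13 and 9 reads (59.6 and 63.2), Smad3, a transducer of activin and TGF-beta, 11 and 9 (50.4 and 63.2), and Mfng, a glycosyltransferase that modifies Notch, 20 and 4 (91.7 and 28.1). At the promoter of Wnt10b, a ligand, there were 12 and 11 reads (55.0 and 77.3). Nuclear receptors were at 0.906 (0.756 to 1.08, 72 regions): the promoter of Nr1h3, the oxysterol receptor LXR alpha, had 17 Nons reads (77.9) and 1 Smarcc1.6 read (7.03), and an intron of Ppard, a fatty acid receptor, 6 and 13 reads (27.5 and 91.3). Summed over its 10 regions, Ppard had 56 and 33 reads, a ratio of 0.903 (0.569 to 1.41). Axon guidance genes were at 0.890 (0.794 to 0.997, 165 regions), with 7 lower (13.7%) and 2 higher (3.92%) among 51 regions of 10 or more reads, beside 17.0% and 14.5% over all regions. The axon guidance interval no longer lay wholly under 1 with trimmed-mean scaling, without regions that overlap an XY peak, or without the region of most XY reads. Plxnd1, a semaphorin receptor of that list, had 20 and 4 reads (91.7 and 28.1) and Sema6c, a semaphorin, 15 and 5 (68.8 and 35.1). Collagen, laminin and Adamts genes were at 1.01 (0.917 to 1.12, 201 regions), potassium and calcium channels at 0.946 (0.846 to 1.06, 187 regions) and cadherins and protocadherins at 0.967 (0.833 to 1.12, 119 regions). Lama5, a laminin chain of basement membranes, had 16 and 7 reads (73.4 and 49.2). Cdh23, a cadherin of hair cell tip links, and Cdh4 each had an intronic region of 5 and 10 reads (22.9 and 70.3), but summed over all their regions they had 0.794 (0.566 to 1.10, 25 regions) and 0.902 (0.650 to 1.24, 26 regions). Autosomal housekeeping genes were at 0.589 (0.333 to 1.00) on only 52 and 20 reads in 8 regions. Ppia, a cyclophilin of that list, had 8 and 4 reads (36.7 and 28.1) at its promoter.

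**Figure D5:**
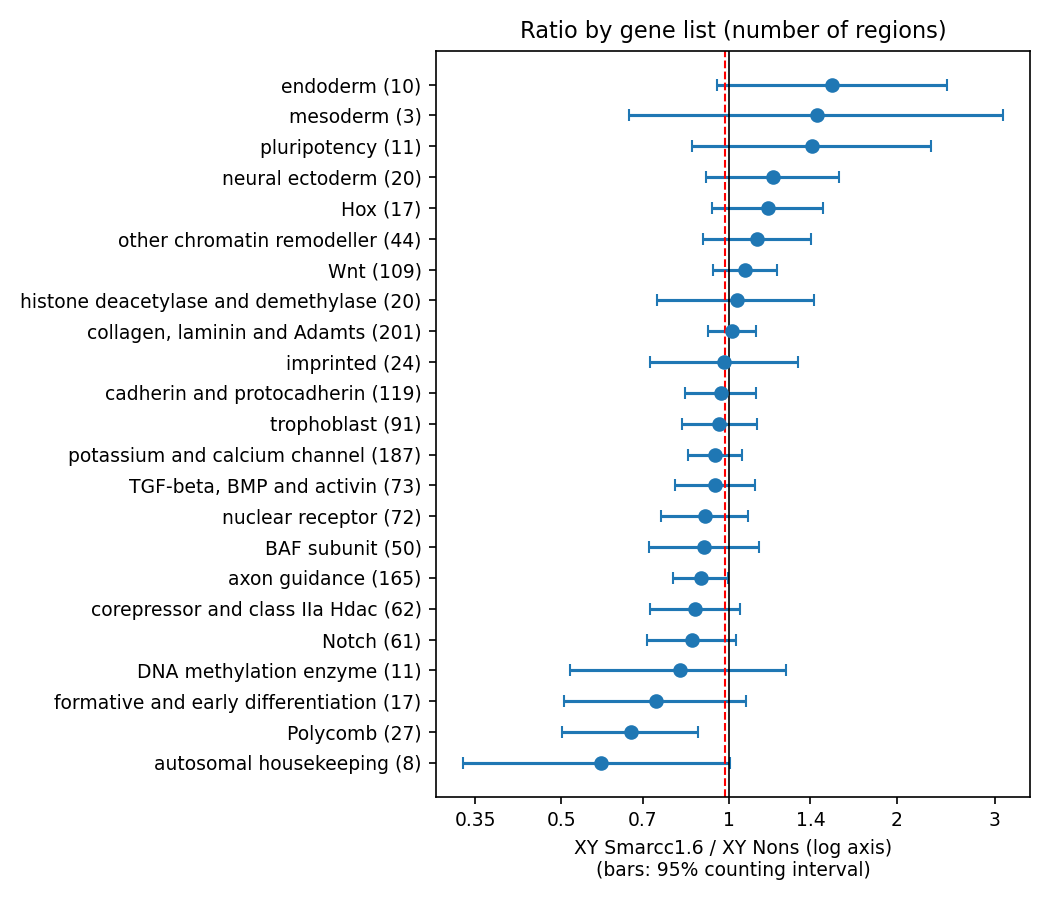
Ratio of summed scaled signal, XY Smarcc1.6 over XY Nons, for each gene list (points, log axis; number of regions in parentheses) with 95% counting intervals as bars, a solid line at 1 and a dashed line at the overall ratio, 0.985. The Polycomb list at 0.668 and the axon guidance list at 0.890 have bars wholly under 1, and the lists furthest from 1 have few regions.

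Classes by gene type were close together, though regions at miRNA genes were lower. Regions assigned to protein-coding genes had a ratio of 0.973 (0.962 to 0.984, 15536 regions), those of lincRNA genes 1.04 (0.983 to 1.10, 714 regions) and those of antisense genes 0.960 (0.892 to 1.03, 402 regions). Regions assigned to miRNA genes had 0.879 (0.774 to 0.996; 129 regions, 687 and 394 reads) and those assigned to snoRNA genes 0.900 (0.758 to 1.07, 65 regions). These lay within 1000 bp of the start of such a gene and of no protein-coding start, since a protein-coding start took precedence. Such small RNA genes can lie inside longer genes, and how many do so here was not counted. The class is one of position only. Of 45 miRNA regions with 10 or more reads, 24.4% were lower by 2-fold or more and 6.67% higher, beside 17.0% and 14.5% over all regions.

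Single regions were named by their reads alone. Of 301 regions with 20 or more XY reads, 218 lay in or beside protein-coding genes, and 28 of these were lower and 17 higher by 2-fold or more, beside 32 and 25 of all 301. The lowest was in coding sequence of Sirt6, a histone deacetylase of the sirtuin family, at chr10:81623701-81624300, with 19 Nons reads (scaled 87.1) and 1 Smarcc1.6 read (7.03). Its Input held 6 reads, and the ratio was 0.0806 (0.00194 to 0.507). The promoter of Cacnb3, a beta subunit of voltage-gated calcium channels, at chr15:98632201-98632800, had 18 and 2 reads (82.5 and 14.1; Input 9). Emc1, of the membrane insertion complex of the endoplasmic reticulum, had 19 and 3 reads (87.1 and 21.1; Input 2), and Rgs3, a regulator of G-protein signalling, 18 and 3 (82.5 and 21.1; Input 5). Tdrd12, a tudor domain protein of the piRNA pathway, had 21 and 4 reads (96.3 and 28.1; Input 3) at chr7:35528551-35529150. The other 5 of the lowest 10 were in 2300003K06Rik, Cdc42bpg, Ssbp4, Adamtsl5 and Pank4, with 17 to 21 Nons and 2 or 3 Smarcc1.6 reads.

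The 10 highest regions were chosen by this value and are a description. Gtpbp1, a GTP-binding protein, came first with 6 Nons reads (27.5) and 17 Smarcc1.6 reads (119) in coding sequence at chr15:79719151-79719600, a ratio of 4.34 (1.63 to 13.4). An intron of Lmx1b, a LIM homeobox gene of limb and midbrain patterning, at chr2:33631201-33632400, had 13 and 26 reads (59.6 and 183; Input 10), a ratio of 3.06 (1.52 to 6.49). Notch3, a Notch receptor, had 7 and 14 reads (32.1 and 98.4), and the promoter of Pax7, a gene of neural crest and muscle progenitors, 10 and 19 (45.9 and 133) at chr4:139833151-139833600. The promoter of Nkx2-1, a homeobox gene of forebrain, lung and thyroid, had 8 and 13 reads (36.7 and 91.3), and an intron of Nfix, a nuclear factor I gene, 7 and 13 (32.1 and 91.3). The other 4, in Xxylt1, Myo15, 2900026A02Rik and Zdhhc18, had 7 to 9 Nons and 13 to 15 Smarcc1.6 reads. All 10 overlapped an XY Smarcc1.6 peak and 0 of the 10 lowest did, which the choice by reads brings about.

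Regions in or beside protein-coding genes with the most reads were less extreme in ratio. Among them an intron of St3gal3, a sialyltransferase gene, led with 61 Nons reads (scaled 280) and 31 Smarcc1.6 reads (218) on 3 Input reads, a ratio of 0.779 (0.488 to 1.22). An intron of Adamts2, which encodes a procollagen-cleaving protease, had 30 and 34 reads (138 and 239), a ratio of 1.74 (1.03 to 2.94), and an intron of Tubgcp3, of the gamma-tubulin complex, 46 and 18 (211 and 126), a ratio of 0.600 (0.327 to 1.05). Coding exon regions of Hoxa10 and Hoxc11, homeobox genes of the posterior body axis, had 23 and 24 reads (105 and 169) and 20 and 21 reads (91.7 and 148). The Hoxa10 region had 20 reads in XX Nons and 1 in XX Smarcc1.6. Of the other 5, 2 lay in Mroh2a and 1 in Hjurp, a chaperone of the centromeric histone, all between chr1:88233151 and 88264350, and the others in Micall2 and Tmem184a on chromosome 5, with 22 to 38 Nons and 16 to 24 Smarcc1.6 reads.

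Sequences of 4 regions are printed to show what lies under such values. For Lef1 and Lmx1b, a low and a high region, capitals mark CpG dinucleotides. For St3gal3 and Adamts2, the gene regions with the most reads, capitals mark every non-overlapping copy of the most frequent run of 12 bases. All are 300 bases of the plus strand of GRCm38, the middle of the region or, for Lef1, the whole of it.
Lef1, chr3:131184601-131184900: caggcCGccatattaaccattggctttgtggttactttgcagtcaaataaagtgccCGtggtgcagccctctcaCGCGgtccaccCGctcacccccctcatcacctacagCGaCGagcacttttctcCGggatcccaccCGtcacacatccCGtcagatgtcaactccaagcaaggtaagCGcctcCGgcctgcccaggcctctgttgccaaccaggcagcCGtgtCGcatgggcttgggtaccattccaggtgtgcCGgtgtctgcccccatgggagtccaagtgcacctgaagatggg
Lmx1b, chr2:33631651-33631950: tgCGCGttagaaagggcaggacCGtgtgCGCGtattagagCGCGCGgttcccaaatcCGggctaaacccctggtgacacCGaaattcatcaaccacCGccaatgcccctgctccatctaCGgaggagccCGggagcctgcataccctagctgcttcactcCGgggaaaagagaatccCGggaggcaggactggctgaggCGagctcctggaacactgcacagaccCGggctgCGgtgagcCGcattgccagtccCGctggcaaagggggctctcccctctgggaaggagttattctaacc
St3gal3, chr4:118076701-118077000: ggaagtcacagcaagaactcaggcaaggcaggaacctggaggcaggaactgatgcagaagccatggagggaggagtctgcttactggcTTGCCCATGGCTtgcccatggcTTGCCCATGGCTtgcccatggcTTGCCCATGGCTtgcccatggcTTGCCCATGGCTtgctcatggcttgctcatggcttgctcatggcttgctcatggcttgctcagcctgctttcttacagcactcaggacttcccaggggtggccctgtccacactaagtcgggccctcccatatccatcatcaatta
Adamts2, chr11:50778826-50779125: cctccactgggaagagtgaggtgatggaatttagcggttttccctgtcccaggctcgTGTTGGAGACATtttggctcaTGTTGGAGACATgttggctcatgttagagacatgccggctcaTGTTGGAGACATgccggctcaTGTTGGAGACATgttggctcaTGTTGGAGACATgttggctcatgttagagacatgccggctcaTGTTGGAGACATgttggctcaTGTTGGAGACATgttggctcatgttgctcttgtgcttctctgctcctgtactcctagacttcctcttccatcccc
The Lef1 stretch overlaps coding sequence and holds 15 CpG at 60% GC, and the Lmx1b stretch is intronic and holds 20 CpG at 61.7% GC. The St3gal3 and Adamts2 stretches are tandem repeats, with 4 non-overlapping copies of TTGCCCATGGCT and 7 of TGTTGGAGACAT. The counts that follow are over whole regions and include overlapping copies, by which the St3gal3 and Adamts2 regions have 7 each. Over all members, 2044 regions (8.73%) held some run of 12 bases 5 or more times, and their ratio was 0.979 (0.947 to 1.01), beside 0.987 (0.977 to 0.998) in the 18290 regions with no run repeated. Such repeats made up 12.8% of the 234 regions with the most reads, and their enrichment over Input in XY Nons was 4.26-fold, against 6.04-fold without repeats. Whether reads at repeats were placed correctly was not tested.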

How the data were processed

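The authors' 4 tables hold Smarca4 ChIP-seq peaks of 1 library each, called against Input. Reads had been trimmed (trim_galore) and mapped to mm10, by bowtie2 in the study's methods, before Seqmonk removed duplicates and called the peaks. A reporting form of the study names tophat, so the aligner is uncertain. Of the tools above, Bowtie2 also stands in the submitters' notes, beside MACS2 and bcl2fastq. The deposited ChIP values are a signal that the authors gave for every library in each list, brought to Input depth. They were whole multiples of 1 step per library within 0.01 reads (100% of 78911 values per library), and dividing by the step recovered reads. Input was deposited as read counts without scaling.

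Lists were merged by 1 bp, and a merged region took the values of its widest peak. Ratios are summed scaled signal, with exact conditional 95% intervals, or a normal approximation where 1 ratio is set over another. No count test was run, since each side has 1 library. Log2 ratios had 0.5 reads added. Parts and genes came from GENCODE vM21 and bases from the RefSeq copy of GRCm38, the assembly of mm10; every region end lay within its chromosomes. Named regions were the 10 lowest and 10 highest in log2 ratio with 20 or more XY reads in or within 1000 bp of protein-coding genes, the 10 with most reads there, and the 2 with most reads per gene list, from which examples of known function are printed. Regions, parts and lists were chosen with earlier results of these data known. Python 3.11.15, numpy, pandas, scipy and pysam were used. The interval was tested on data simulated with counting error alone, which leaves out the wider scatter found between these libraries. Absence from a peak list does not show absence of binding. A Nons read stands for less scaled signal than a Smarcc1.6 read, so the minimum of 10 reads in both libraries together keeps regions high in Nons more readily.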

Additional observations from a re-analysis of the deposited data

Results flagged for a closer look

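Introns, intergenic regions within 50 kb of a gene and distal intergenic regions had XY ratios of 1.00, 1.015 and 1.01, at or just over 1, whereas the XX ratios of the same parts, in regions of the XY lists, were 0.641, 0.643 and 0.653. The directions were opposite, but the XY intervals of all 3 hold 1, the region sets differ and the difference was not tested.

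Signal above Input was also present in regions that the comparison leaves out. XY Nons stood 4.65-fold over Input in 385 X-linked regions of the XX lists with Input under 20. It stood 2.38-fold over Input in 71 autosomal regions with 20 or more Input reads. These regions too came from peaks called against Input, which can raise the fold.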

How the results depend on the processing

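With 1 library per group no replicate could be left out. No paired analysis was possible because each group has 1 library. Of 76 values under 17 other settings and 3 for the gene lists that were chosen after seeing the data, 55 stayed within the counting interval of the value reported, or within 1.5 times of a count. The overall ratio moved to the other side of 1 with no Input maximum (1.00), with the XX Smarcc1.6 list alone (1.02), without regions overlapping an XY peak (1.04) and as the median of regions (1.04), and the promoter over other ratio, 0.962, did so with no Input maximum (1.08). With no Input maximum the level ratio was 1.04. With the XX Smarcc1.6 list alone the chromosome spread went from 1.11 to 1.31, the level ratio to 0.886, and the counts past 2-fold to 84 lower and 77 higher. As medians of regions the chromosome spread was 1.22 and the level ratio 0.935. With level taken from Input the level ratio was 0.953. The counts past 2-fold were 300 lower and 422 higher without regions overlapping an XY peak, 4403 and 4668 with no minimum and 805 and 871 with 1 read added, all of which turn their order, and 32 and 25 at 20 or more reads. The cause was not tested. Of the gene lists, 1 lay wholly under 1 with trimmed-mean scaling and 0 without regions overlapping an XY peak. Without the region of most XY reads in each list 2 did, Polycomb and autosomal housekeeping genes. The XY Nons list is the longer of the XY lists, so leaving out its peaks removes more regions high in Nons. A median of 4 and 3 reads per region limits single regions to large differences.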

Other observations

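On the X chromosome, outside the autosomal regions above, the 385 regions of the XX lists with Input under 20 had a mean scaled signal of 8.37 in XY Nons and 9.47 in XY Smarcc1.6, on 703 and 519 reads. The autosomal means were 20.9 and 20.6. Mean Input was also lower in the X-linked regions, 1.80 reads against 3.67 in the autosomal ones. Over Input the X-linked signal stood at 4.65-fold in XY Nons and 5.26-fold in XY Smarcc1.6, beside 5.70-fold and 5.61-fold on the autosomes. The X-linked ratio was 1.13 (1.01 to 1.27), and only 4 of the regions had 10 or more XY reads.

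The 71 autosomal regions with 20 or more Input reads held 9295 XY Nons and 7328 XY Smarcc1.6 reads, at a ratio of 1.21 (1.17 to 1.25). They are few, but they turn the overall ratio from 0.985 to 1.00 when they are kept.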
